A study of Mus musculus with 6 samples.

Results

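AP-1 is a family of transcription factors in which a protein of the Fos family pairs with one of the Jun family through a leucine zipper and binds the DNA letters TGANTCA or the related TGACNTCA. The genes described here are Fos, Fosb and Fosl2 of the Fos family and Jun, Junb and Jund of the Jun family. They were chosen by gene symbol, with earlier results of these data known. All 6 were present in the table of 9583 protein-coding genes, so each had passed the authors' filter on low values.

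In neurons most of these genes are immediate early genes. Calcium entry during activity switches on their transcription through factors that are already in the cell, such as CREB and SRF, before any new protein has to be made. Jund is known as the member with the steadiest expression, and Fosb gives rise by splicing to the long-lived protein deltaFosB. Fos family proteins need a Jun partner to bind DNA well, while Jun proteins can also pair with each other.

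The RNA came from neurons of the pre-optic area (POA), a hypothalamic region that regulates body temperature, of naïve wild-type C57Bl/6J mice aged 6 to 14 weeks by the sample labels. Dissociated cells were loaded with a calcium indicator and cooled to about 10 °C, and neurons with a cold response in the top 7% were pooled as cold-sensitive and those in the bottom 14% as cold-insensitive. Each group had 3 biological replicates, and each of the 6 libraries was a pool of about 100 to 200 neurons from several isolations. According to the methods, cells of both groups were picked from cultures on coverslips and had been digested for 30 min at 34 °C, cultured acutely, cooled, and perfused at the end of the recording with a high-potassium solution, which depolarises neurons. No pool that had not been dissociated, cooled and depolarised was analysed here, so every level below is that of neurons after these steps.

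The libraries held 3316441 to 6818554 counts, and cold-sensitive replicates 1 and 2 were the shallowest, with 3398010 and 3316441 counts. Expression is given as reads per 1000000 reads of the effective library size (RPM), in which 1 count was worth 0.150 to 0.308 RPM. Of 15 neuron markers 15 were in the table, of which 1 was called lower and 0 higher. This was Thy1, a neuronal surface protein, at 102 ± 41.2 RPM in cold-sensitive and 235 ± 28.0 RPM in cold-insensitive pools (log2 fold change -1.20, adjusted p = 0.0347 by edgeR), a call kept in 1 of 6 fits with a pool left out, that without cold-sensitive replicate 3. Of 6 markers of GABA and glutamate neurons 5 were in the table, and Slc17a6, the vesicular glutamate transporter, was called higher, with 264 ± 40.1 RPM in cold-sensitive and 112 ± 39.6 RPM in cold-insensitive pools (log2 fold change 1.25, adjusted p = 0.0243 by edgeR). That call was kept in 2 of 6 such fits, those without cold-insensitive replicate 3 or cold-sensitive replicate 1. The 4 markers not called all went the other way, with log2 fold changes of -0.95 for Slc32a1, -0.87 for Slc17a8, -0.39 for Gad1 and -0.12 for Gad2. Markers of microglia (0 of 13), endothelium (0 of 10) and mural cells and fibroblasts (0 of 10) were not among the tested genes. Marker RNA of the oligodendrocyte lineage differed between the pools. Mbp, a myelin gene of oligodendrocytes, measured 419, 143 and 74.2 RPM in cold-sensitive and 195, 48.7 and 16.1 RPM in cold-insensitive replicates 1, 2 and 3, so that cold-sensitive replicate 1 was the highest pool and the groups overlapped. Of 8 markers of oligodendrocyte precursors 3 were in the table, with a summed level of 47.6 to 57.9 RPM in cold-sensitive and 463 to 503 RPM in cold-insensitive pools. Of these 2 were called lower, and C1ql1, not called, went the other way, with 10.1 ± 3.02 and 5.18 ± 2.87 RPM. The part of neuron types and of these other cells in the AP-1 values was not tested.

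Short stretches of the promoters are shown where they hold a match to a motif that was searched. Sites of SRF were not searched, and whether activity reaches these genes through the matches was not tested. In the RefSeq promoters of the mouse build GRCm38.p6, from 250 bases before to 50 bases after the start, 4 motifs were searched on both strands. These were the AP-1 site TGANTCA, the CRE or Jun-type site TGACNTCA, the CRE half-site TGACG and the EGR-type site GCGNGGGCG. A TGACNTCA match whose open letter is G also holds TGACG. Each window below is 30 bases, written 5′ to 3′ on the strand of the gene, with the matched letters in capitals.

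Fos, chr12:85473812-85473841, forward strand, 66 bases before the start: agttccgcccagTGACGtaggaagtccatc

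Fosb, chr7:19310088-19310117, reverse strand, 60 bases before the start: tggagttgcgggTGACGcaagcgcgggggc

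Junb, chr8:84978837-84978866, reverse strand, 106 bases before the start: gcttcctgacagTGACGcgagccgcctcct

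Jun, chr4:95052249-95052278, reverse strand, 45 bases before the start: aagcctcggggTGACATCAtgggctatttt

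Fosl2, chr5:32136383-32136412, forward strand, 79 bases before the start: ccggctgcgcGCGGGGGCGgaagggcgcgc

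The promoters of Fos, Fosb and Junb shared the CRE half-site, which 20.8% of 32851 promoters of the same length held. Fos had a further match 129 bases before its start, and Fosb an EGR-type match at 50 bases that lay beside its half-site. The Jun promoter held the Jun-type site, found in 8.83% of promoters, and those of Fosl2 and Fosb the EGR-type site, found in 5.55%. The AP-1 site itself, present in 7.81% of promoters, was in 0 of the 6, and the Jund window held none of the 4 motifs. A match is a run of letters in these windows, and binding was not measured. For Fosl2 and Jund the RefSeq start lies 671 and 1210 bases from the GENCODE start of the gene, so these windows belong to another start than the gene model.

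The comparison of cold-sensitive with cold-insensitive pools asks which of the AP-1 genes differ between neurons that respond to cooling and neurons that do not. Fosb was lower in cold-sensitive neurons by 2.04 times and was the 1 of the 6 genes that passed the test. Fosl2 and Jun had lower means that did not pass, the Fos pools of the groups overlapped, and Junb and Jund had log2 fold changes of 0.34 and -0.03. Across all genes tested, edgeR's quasi-likelihood test called 0.835% lower and 0.334% higher in cold-sensitive neurons (1.17% either way) at an adjusted p of at most 0.05. Among the 6 AP-1 genes it called 1 lower and 0 higher, and 3 were lower at an unadjusted p under 0.05, where 5.66% of all genes were (5.04% were higher). The median log2 fold change of the 6 was -0.54, beside 0.00 over all genes. In pools of neurons, fewer cells that express a gene and less of its RNA per cell cannot be told apart.

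Fosb encodes a Fos family protein with the splice form deltaFosB, which builds up on repeated activity. The gene lies on chr7:19302696-19310051 (GRCm38, GENCODE M21, reverse strand), and counting was per gene, so its splice forms were not separated. It measured 479, 484 and 390 RPM in cold-insensitive replicates 1, 2 and 3 and 292, 214 and 155 RPM in cold-sensitive replicates 1, 2 and 3. Every cold-sensitive pool was below every cold-insensitive pool, and within the cold-insensitive group the first pair of values was nearly equal. The means were 221 ± 68.7 and 451 ± 52.9 RPM (SD, n = 3 pools each), with a log2 fold change of -1.03 (SE 0.24, 95% interval -1.53 to -0.54, adjusted p = 0.0341 by edgeR). Its p ranked 63 among the 9583 genes. The exact two-sided permutation test of the means gave p = 0.1, the smallest that 3 against 3 pools allow.

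The Fosb difference had the same sign under every alternative run, and it passed the threshold in 12 of 12 other settings of scaling, filter and tool, with adjusted p from 0.00566 to 0.0369. With fewer pools it often did not. Leaving out cold-insensitive replicate 1, 2 or 3 gave an adjusted p of 0.117, 0.200 or 0.0501 by edgeR, and leaving out cold-sensitive replicate 2 or 3 gave 0.116 or 0.171. The call was kept without cold-sensitive replicate 1, at an adjusted p of 0.00396 by edgeR. That pool had the highest Fosb level of its group, so leaving it out widened the difference. It also held the most Mbp, whose part in the Fosb values was not tested. Over these 6 fits the log2 fold change ran from -1.29 to -0.83.

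**Figure D1:**
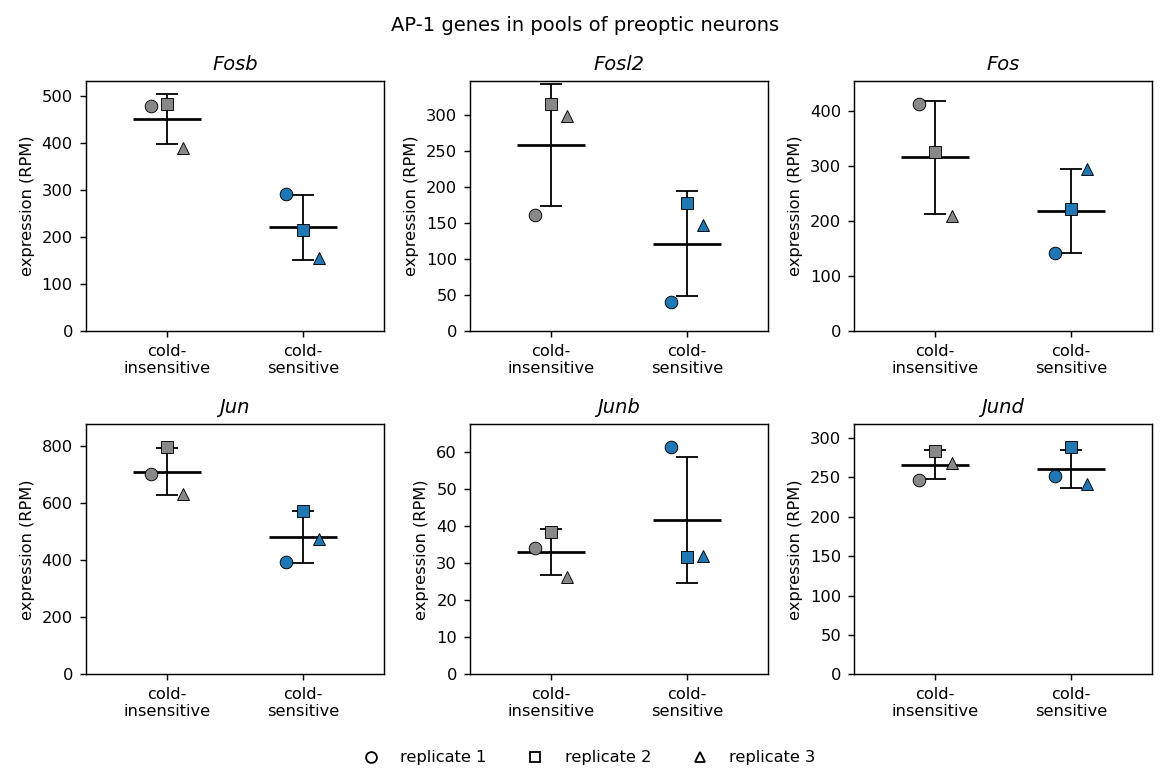
Expression (RPM) of the 6 AP-1 genes in each pool, by group, with replicate numbers as symbols, the group mean as a bar and the SD as whiskers (n = 3 pools). The Fosb pools of the groups are apart, at 155 to 292 RPM in cold-sensitive and 390 to 484 RPM in cold-insensitive neurons, and those of Jund lie between 242 and 288 RPM in both.

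Fosl2 encodes Fra-2, a Fos family protein that lacks the strong activation domain of Fos. The gene lies on chr5:32135801-32157842 (forward strand) and has the longest exons of the set, 9680 bases. It measured 161, 316 and 299 RPM in the cold-insensitive pools and 40.0, 177 and 147 RPM in the cold-sensitive pools, in the order of their replicate numbers. The groups overlapped, because cold-insensitive replicate 1 was below cold-sensitive replicate 2. Replicate 1 was the lowest pool in both groups, and the 40.0 RPM of cold-sensitive replicate 1 rested on 138 counts. That pool also held the most Mbp RNA, whose part in the Fosl2 value was not tested. Without the pool, the lowest in Fosl2, the log2 fold change was -0.67 (adjusted p = 0.369 by edgeR). The log2 fold change was -1.09 (SE 0.36, 95% interval -1.83 to -0.34), with an adjusted p of 0.202 by edgeR and an exact permutation p of 0.2.

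By the methods both cell types were collected from the coverslips and pooled by type within each replicate. Pools with the same replicate number were therefore taken as pairs, although no source states that they share coverslips and their deviations correlated only weakly, at 0.0438 to 0.0552 across genes. The difference within each pair was a log2 of -2.01, -0.83 and -1.02 for Fosl2 in pairs 1, 2 and 3. All pairs thus pointed down although the groups overlapped. With the replicate as a block in the edgeR fit, Fosl2 passed the threshold, with a log2 fold change of -1.27 (SE 0.26) and an adjusted p of 0.00960, in a fit that called 1.19% of all genes lower. It was the 1 call among the 6 genes that the block changed, which brought the number called to 2. The block was the 1 of 12 other settings in which Fosl2 passed, and with DESeq2 its adjusted p was 0.528. Without the block Fosl2 was called in 0 of 6 fits with a pool left out, with log2 fold changes from -1.45 to -0.67.

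Fos, the classic marker of recent neuronal activity, lies on chr12:85473890-85477273 (forward strand). It measured 413, 325 and 209 RPM in cold-insensitive and 142, 221 and 294 RPM in cold-sensitive replicates 1, 2 and 3. The highest and the lowest pool both had the replicate number 1, and cold-insensitive replicate 3 was below 2 of the 3 cold-sensitive pools. The means were 315 ± 102 RPM in cold-insensitive and 219 ± 76.1 RPM in cold-sensitive neurons, with a log2 fold change of -0.52 (SE 0.27, 95% interval -1.09 to 0.04, adjusted p = 0.512 by edgeR, exact permutation p = 0.3). The pairs did not point the same way, with a log2 difference of -1.54, -0.55 and 0.49. The interval still holds a 2-fold lower level, so a difference of the size of that of Fosb is not excluded by these pools.

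Jun encodes c-Jun, the classic partner of Fos, and its single exon lies on chr4:95049034-95052222 (reverse strand). It had the most reads of the 6, with 700, 795 and 631 RPM in the cold-insensitive and 394, 573 and 475 RPM in the cold-sensitive pools. The groups did not overlap, although cold-sensitive replicate 2 was close to cold-insensitive replicate 3. The means were 709 ± 82.6 and 480 ± 89.5 RPM, a log2 fold change of -0.56 (SE 0.21, 95% interval -1.0 to -0.12) that did not pass the test (adjusted p = 0.286 by edgeR, exact permutation p = 0.1). Fosb and Jun were thus the 2 of 6 genes with all cold-sensitive pools below all cold-insensitive pools, where 8.20% of all genes had this order. Fosb, Fosl2 and Jun were lower in 3 of 3 pairs, as were 17.1% of all genes.

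Junb, a Jun protein that can hold back the activity of c-Jun, lies on chr8:84974484-84978718 (reverse strand). It had the fewest reads, with 34.1, 38.5 and 26.3 RPM in the cold-insensitive and 61.4, 31.7 and 32.1 RPM in the cold-sensitive pools, each from 103 to 225 counts. One pool, cold-sensitive replicate 1, stood above the others, which all lay within 26.3 to 38.5 RPM. The log2 fold change was 0.34 (SE 0.48, 95% interval -0.65 to 1.32, adjusted p = 0.892 by edgeR), and without that pool it was -0.054. The pool also held the most Mbp, whose part in the Junb value was not tested. Over 173 bases the exons of Junb overlap Prdx2 on the opposite strand, and the counting at default settings did not use strand. The effect of this on the Junb counts was not tested.

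Jund, the steadiest Jun gene in most tissues, has a single exon on chr8:70698949-70700616 (forward strand). Its levels were 247, 283 and 269 RPM in the cold-insensitive and 251, 288 and 242 RPM in the cold-sensitive pools. The groups covered the same range, and the highest pool was 1.19 times the lowest. The log2 fold change was -0.03 (SE 0.22, 95% interval -0.48 to 0.42, adjusted p = 0.980 by edgeR, exact permutation p = 0.9). The interval leaves out a 2-fold difference in either direction.

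**Figure D2:**
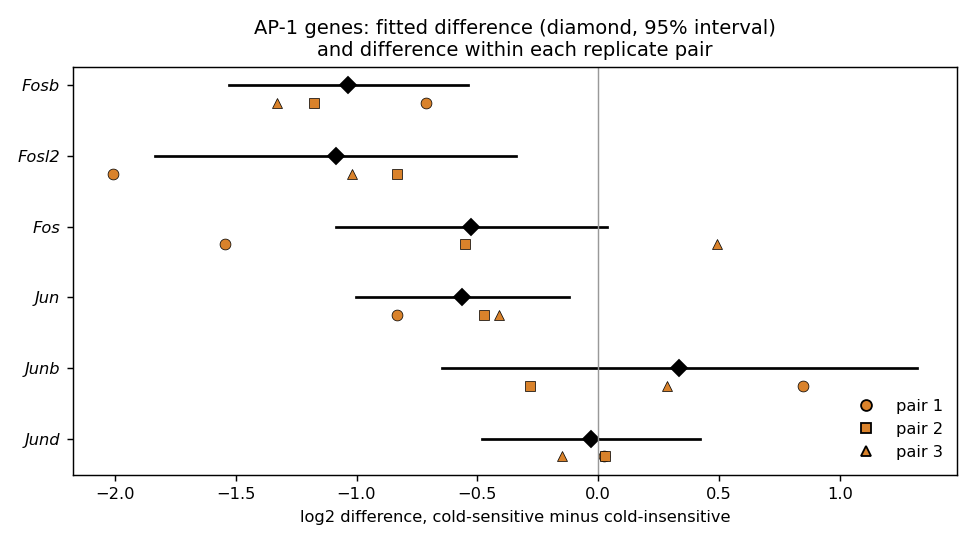
Log2 difference between cold-sensitive and cold-insensitive pools for each AP-1 gene, as the edgeR estimate with its 95% interval (diamond and line) and within each pair of pools with the same replicate number (symbols). The intervals of Fosb, Fosl2 and Jun lie below 0, though Fosb alone passed the adjustment over all genes, and the Fos pairs run from -1.54 to 0.49.

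The 6 genes differed in how much the pools of a group varied. The coefficient of variation of Fosl2 was 59.4% among cold-sensitive and 32.9% among cold-insensitive pools, and that of Jund was 9.44% and 6.85%. Over all genes the median was 31.0% and 28.7%. Fosl2 spanned 7.90-fold from its lowest to its highest pool, Fosb 3.12-fold, Fos 2.91-fold, Junb 2.33-fold and Jun 2.02-fold.

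Per kilobase of exon, which allows genes to be compared, the order of mean levels over the 6 pools was Jun, Jund, Fos, Fosb, Fosl2 and Junb. Exon length was the union over all annotated transcripts, which for Fosb, with 7 transcripts, gave 6243 bases in 2 blocks. A base that is exon in only some transcripts counts in full, so these levels and orders depend on the length used. The levels were 186 RPM per kilobase for Jun, 158 for Jund, 114 for Fos, 53.8 for Fosb, 19.6 for Fosl2 and 16.2 for Junb. By this length Fos was above Fosb and Fosb above Fosl2 in 6 of 6 pools. In reads, Fos was below Fosb in every cold-insensitive pool and in cold-sensitive replicate 1. The other neighbours, Jun and Jund, Jund and Fos, and Fosl2 and Junb, changed places in 1 pool each. Within a group the order could be clear, since Jun was above Jund in 3 of 3 cold-insensitive pools and Jund above Fos in 3 of 3 cold-sensitive pools. No test of these orders was made. Jun, Jund and Fos lay at the 99.0, 98.7 and 97.9 percentile of the 9483 genes with an exon length, Fosb at 93.2, Fosl2 at 74.2 and Junb at 68.5. In levels per kilobase Jun had 151 ± 28.1 in cold-sensitive and 222 ± 25.9 in cold-insensitive pools, while Jund had 156 ± 14.7 and 160 ± 10.9.

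The make-up of the AP-1 reads was described per library. The summed level of the 6 genes was 2034, 2241 and 1824 RPM in cold-insensitive and 1180, 1506 and 1345 RPM in cold-sensitive replicates 1, 2 and 3. All cold-sensitive sums were lower. Fos, Fosb and Fosl2 made up 51.8, 50.2 and 49.2% of the reads of the 6 genes in the cold-insensitive pools. In the cold-sensitive pools they made up 40.1, 40.7 and 44.3%, again with no overlap. Fosl1, a Fos family gene outside the 6, was left out, so these are not shares of the whole Fos family. It measured 102 ± 29.3 RPM in cold-sensitive and 83.9 ± 46.4 RPM in cold-insensitive pools. Weighted per kilobase of exon, with the same union lengths, the mean share of Fos, Fosb and Fosl2 was 36.8% in cold-insensitive and 30.2% in cold-sensitive pools. By this weighting the groups overlapped, with 41.3, 36.3 and 33.0% in cold-insensitive and 27.0, 28.6 and 34.9% in cold-sensitive replicates 1, 2 and 3. The separation seen in reads thus depends on the weighting. As sums over the described genes these are descriptions without a test, and they carry the lower Fosb and Fosl2 levels given above.

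Fosb set against Jund, the member that varied least, gave a ratio of 1.94, 1.71 and 1.45 in the cold-insensitive and 1.16, 0.743 and 0.641 in the cold-sensitive pools. All cold-sensitive ratios were lower, as with the levels. The ratio of Fos to Fosb reads behaved differently, with 0.861, 0.671 and 0.536 in the cold-insensitive and 0.485, 1.03 and 1.89 in the cold-sensitive pools. Both the lowest and the highest of the 6 ratios belonged to cold-sensitive pools, so the balance of these related genes was not alike within that group.

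**Figure D3:**
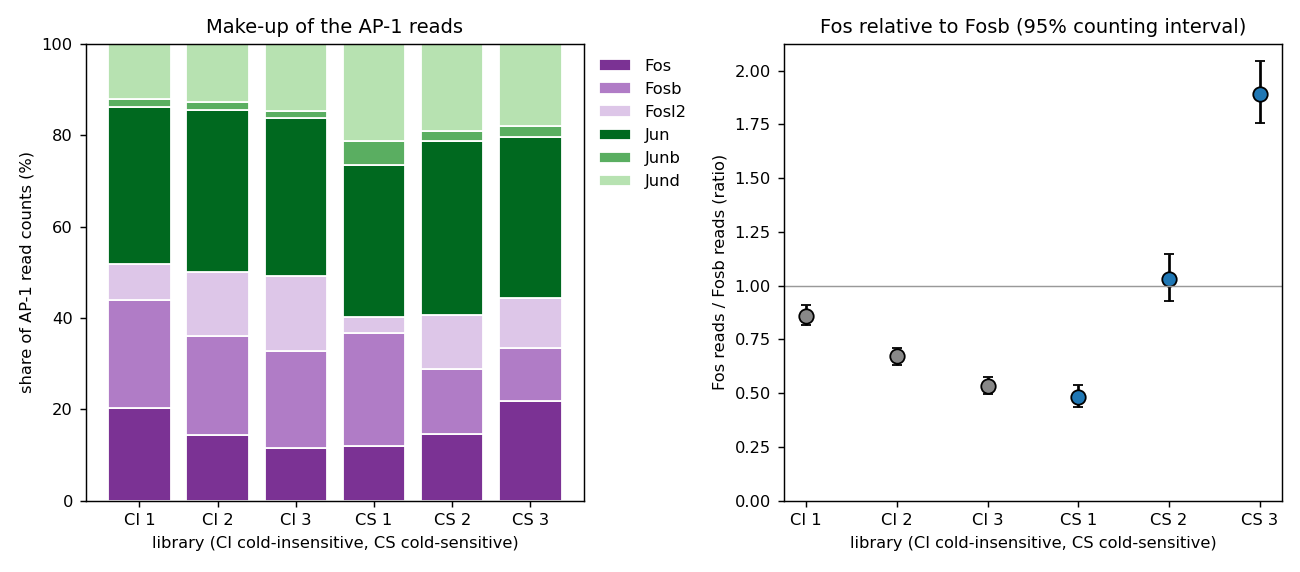
Left, share (%) of each gene in the AP-1 read counts of each library, Fos family in purple and Jun family in green. Right, ratio of Fos to Fosb reads per library, with the 95% counting interval, which is 0.485 in cold-sensitive replicate 1 and 1.89 in cold-sensitive replicate 3.

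The patterns of the genes over the 6 pools were compared after each was centred on its own mean log2 level. Jun and Jund were the closest pair of the 15, with a mean absolute log2 difference of 0.27, followed by Junb and Jund at 0.28 and Fos and Jun at 0.31. The distance was not scaled for how much a gene varied, and Jund was nearly flat over the pools. A small distance to Jund therefore does not mean a shared pattern. Jun was lower in every cold-sensitive pool (log2 fold change -0.56), whereas Jund had a log2 fold change of -0.03. Fosl2 and Junb were the farthest apart, at 0.92. Among 8858 other genes with a mean of at least 10 RPM, those nearest to Fosb were Prr7 (0.073), Mb21d2 (0.089) and Lrp1 (0.093), of which Lrp1, a receptor that takes up lipoproteins, had a log2 fold change of -0.93 (adjusted p = 0.0631 by edgeR). The genes nearest to Fosl2 were Nefl (0.134), Slc6a15 (0.176) and Disp1 (0.197). Nefl, the light neurofilament chain, had a log2 fold change of -1.0 (adjusted p = 0.141 by edgeR, and 0.00388 with the replicate block).

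Rps4x (0.091), Tstd2 and Cntn1 came nearest to Fos, Chst1 (0.073), Clip2 and Tex261 to Jun, Pde1b (0.076), Snx17 and Ubap2 to Junb, and Socs7 (0.034), Itsn1 and Rcan3 to Jund. These distances describe 6 points that share 2 groups and the same libraries.

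The other genes of the AP-1 pathway were read from the same fit, in lists by role. Of 22 further dimer partners of Fos and Jun 13 were in the table, and 0 were called by edgeR or DESeq2, with 0 lower and 3 higher at an unadjusted p under 0.05 and a median log2 fold change of 0.13. Atf4, the stress-induced partner, took the most reads, with 463 ± 37.8 RPM in cold-sensitive and 463 ± 133 RPM in cold-insensitive pools. Atf2, which pairs with Jun at TGACNTCA sites, measured 275 ± 73.2 and 163 ± 13.1 RPM (log2 fold change 0.75, adjusted p = 0.186 by edgeR, and 0.152 with the replicate block). Fosl1, the Fos family gene outside the 6, measured 102 ± 29.3 and 83.9 ± 46.4 RPM (log2 fold change 0.29, adjusted p = 0.864 by edgeR). None of these partners thus had a call in either direction.

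Of 18 SRF and CREB factors and their cofactors, which carry the activity signal to the Fos promoter, 18 were in the table and 0 were called by edgeR or DESeq2, with 0 lower and 1 higher at an unadjusted p under 0.05 and a median of 0.12. Crebbp, the histone acetylase that CREB recruits, took the most reads, at 442 ± 181 RPM in cold-sensitive and 584 ± 148 RPM in cold-insensitive pools. Of 29 kinases upstream of AP-1 26 were in the table and 0 were called by edgeR or DESeq2, with 2 lower and 2 higher at an unadjusted p under 0.05 and a median of -0.00. Prkacb, a catalytic subunit of protein kinase A, took the most reads, at 1253 ± 197 and 1151 ± 166 RPM. Camk4, the calcium-dependent kinase that phosphorylates CREB, measured 15.9, 84.3 and 64.3 RPM in the cold-sensitive and 130, 130 and 167 RPM in the cold-insensitive pools. Its groups did not overlap, with a log2 fold change of -1.37 and an adjusted p of 0.105 by edgeR, and it passed with the replicate block (adjusted p = 0.0232 by edgeR).

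Of 22 genes for scaffolds, inhibitors and turnover of AP-1 18 were in the table and 0 were called by edgeR or DESeq2, with 2 lower and 0 higher at an unadjusted p under 0.05 and a median of 0.03. Most reads were taken by Mapk8ip3, a scaffold of the Jun kinases, at 482 ± 112 RPM in cold-sensitive and 454 ± 71.0 RPM in cold-insensitive pools, and Ncor1, a corepressor, at 320 ± 31.8 and 337 ± 49.9 RPM. Of 25 genes known to respond to tissue dissociation 20 were in the table and 0 were called by edgeR or DESeq2, with 0 lower and 1 higher at an unadjusted p under 0.05 and a median of -0.12. The AP-1 genes and the other immediate early genes were kept in lists of their own. The called Fosb and Nr4a1 are therefore outside this count, which does not cover every gene that dissociation may induce. Hsp90aa1, a heat shock chaperone, measured 3253 ± 912 RPM in cold-sensitive and 2769 ± 310 RPM in cold-insensitive pools.

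The other immediate early genes did not move as 1 group. Of 35 such genes 26 were in the table, 2 were called lower, 1 higher and 23 not, with 8 lower and 2 higher at an unadjusted p under 0.05 and a median of -0.50. DESeq2 called 6 of them, and 2.51% of all genes to which it gave an adjusted p. The genes called lower were Nr4a1, an orphan nuclear receptor, and Plk2, a kinase of synaptic scaling. The gene called higher was Apold1, known from the endothelium.

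Nr4a1 measured 18.0, 13.5 and 20.2 RPM in the cold-sensitive and 73.4, 65.1 and 68.7 RPM in the cold-insensitive pools. The groups were far apart for a gene of this level, with a log2 fold change of -2.0 (adjusted p = 0.0271 by edgeR), though the adjusted p rose to at most 0.133 when a pool was left out and the call was kept in 1 of 6 such fits, that without cold-sensitive replicate 1. With limma voom its adjusted p was 0.0512. Plk2 measured 222, 321 and 375 RPM in the cold-sensitive and 428, 678 and 763 RPM in the cold-insensitive pools. Its groups did not overlap either, with a log2 fold change of -1.02 (adjusted p = 0.0362 by edgeR) and calls in 2 of 6 fits with a pool left out, those without cold-insensitive replicate 1 or cold-sensitive replicate 3. Apold1 measured 164, 52.9 and 119 RPM in the cold-sensitive and 2.73, 9.25 and 16.5 RPM in the cold-insensitive pools. Its log2 fold change of 3.56 (adjusted p = 0.000838 by edgeR) was called in 6 of 6 such fits.

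Egr1, a zinc finger factor that binds sites of the EGR type named above for Fosb and Fosl2, had the most reads of this list, with 962, 686 and 611 RPM in the cold-sensitive and 522, 376 and 365 RPM in the cold-insensitive pools. Its cold-sensitive pools were all higher, in contrast to those of Fosb. The log2 fold change was 0.84 (adjusted p = 0.0700 by edgeR, and 0.0174 with the replicate block). Npas4, a factor that in neurons is induced by calcium entry alone, measured 24.6, 46.7 and 44.2 RPM in the cold-sensitive and 108, 90.6 and 90.2 RPM in the cold-insensitive pools. Its log2 fold change was -1.32 (adjusted p = 0.0806 by edgeR, and 0.0728 with the replicate block). The groups did not overlap, and the order was that of Fosb.

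**Figure D4:**
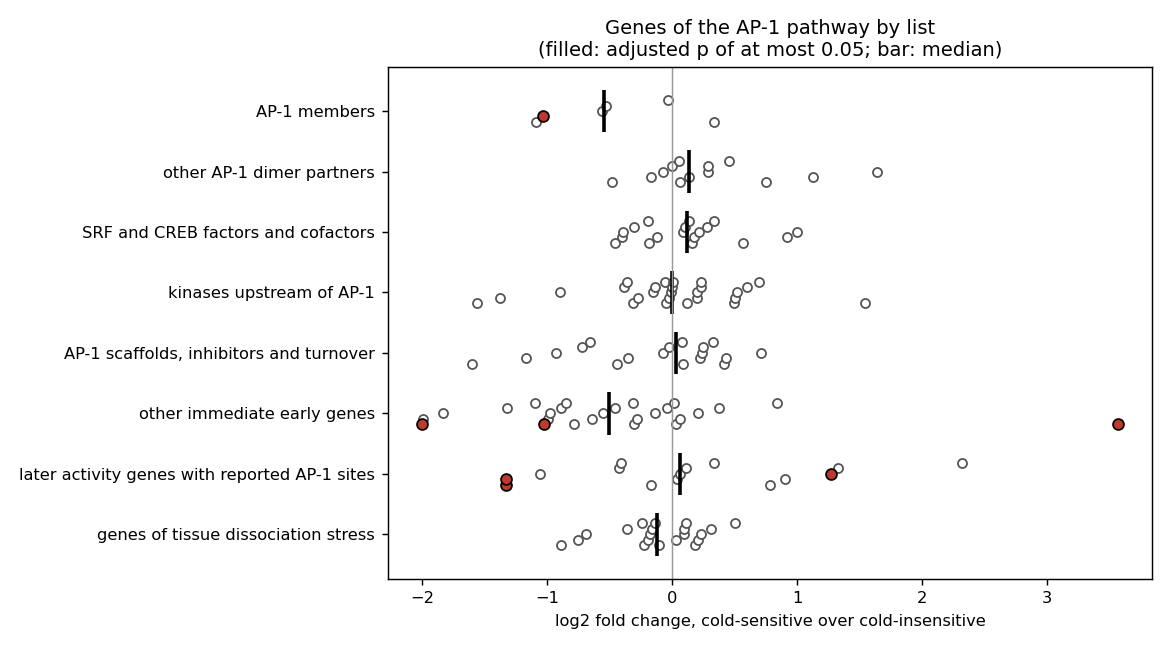
Log2 fold change (cold-sensitive over cold-insensitive) of the tested genes of each list, with genes at an adjusted p of at most 0.05 filled and the median as a bar. The AP-1 genes and the other immediate early genes have medians of -0.54 and -0.50. The medians of the dimer partners, the SRF and CREB factors, the kinases and the inhibitors lie near 0, with single genes spread to both sides.

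Genes that act later and have AP-1 sites reported in some cell types went both ways. Of 20 such genes 15 were in the table, 2 were called lower, 1 higher and 12 not, with a median of 0.07. Inhba, a subunit of activin, measured 713, 751 and 556 RPM in the cold-sensitive and 1239, 1673 and 2148 RPM in the cold-insensitive pools (log2 fold change -1.33, adjusted p = 0.00265 by edgeR). Every cold-sensitive pool was lower, and the call was kept in 6 of 6 fits with a pool left out.

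Nptx2, which clusters AMPA receptors at synapses, fell from 151 ± 4.10 to 60.2 ± 13.0 RPM (log2 fold change -1.33, adjusted p = 0.0247 by edgeR), a call kept in 1 of 6 such fits, that without cold-sensitive replicate 1. Pcsk1, a protease that matures neuropeptides, was higher, with 316 ± 61.4 against 131 ± 6.90 RPM (log2 fold change 1.27, adjusted p = 0.00652 by edgeR), a call lost without cold-insensitive or cold-sensitive replicate 2. Scg2, a granule protein, took the most reads, at 5079 ± 1301 and 4021 ± 690 RPM. Rgs4, a regulator of G protein signalling, measured 1123 ± 609 and 2336 ± 468 RPM (log2 fold change -1.06, adjusted p = 0.0860 by edgeR, and 0.00156 with the replicate block), and it passed in 5 of 12 other settings and in 1 of 6 fits with a pool left out. Bdnf, a neurotrophin, measured 186, 404 and 471 RPM in the cold-sensitive and 2.04, 60.99 and 151 RPM in the cold-insensitive pools. Its groups did not overlap. The log2 fold change was 2.31 (adjusted p = 0.0724 by edgeR) and 3.20 with the replicate block (adjusted p = 0.000556), and Bdnf passed in 6 of 12 other settings. With a pool left out the log2 fold change ran from 1.74, without cold-insensitive replicate 1, to 3.49, without cold-insensitive replicate 3, and it passed in 3 of 6 fits.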

How the data were processed

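The 6 libraries of pooled POA neurons, 3 of each group, were all used. By the methods and the submitters' processing notes, the authors processed the reads with Trimmomatic 0.36 (trimming), STAR 2.5.4b (alignment to GRCm38.p6) and featureCounts in Subread 1.6.2, which at default settings ignores strand, over protein-coding genes. The authors deposited raw counts per gene and library, and a normalized signal, which is the count scaled to 1000000 reads of the TMM effective library. Further deposited columns hold the authors' own comparison by edgeR 3.22.3, with a p-value and a fold change given as a ratio, and were not used. The lowest count in the table is 4 and the lowest normalized value 1.01.

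The analysis of the counts used edgeR 4.0.16 under R 4.3.3, with TMM scaling, the legacy quasi-likelihood fit and F-test, a prior count of 0.125, the group as the only term and Benjamini-Hochberg adjustment over 9583 genes. The common biological coefficient of variation was 42.2%. RPM values came from the counts, and the authors' signal was 0.992 to 0.999 times as large. On counts simulated for this comparison edgeR recovered 12% of genes changed 2-fold, 68% at 4-fold, 92% at 8-fold and 98% at 16-fold, so a change near 2-fold can be missed with these libraries. Intervals of counts cover counting error only.

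Pairing by replicate number is inferred from the methods, by which each coverslip could give cells of both groups, and a replicate gathered the cells of one group over several isolations. They do not state that equal numbers share coverslips. Deviations of same-numbered libraries from their group means correlated at 0.0438 to 0.0552 across genes. DESeq2 1.42.0, limma 3.58.1, other scalings, filters and dispersions, the replicate block and single libraries left out served as alternatives. Exon lengths and coordinates came from GENCODE M21 and promoters from RefSeq.

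The 6 genes and the lists were chosen with earlier results of these data known. The genes named are the 6, at most 3 called and the 2 with the highest RPM of each list as far as the text needs them, and the 3 genes nearest in pattern to each of the 6. Atf2, Fosl1, Camk4, Npas4 and Bdnf were named after their values were seen. The results of 1 marker gene are not reported here.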

Additional observations from a re-analysis of the deposited data

How the results depend on the processing

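Fos, Fosb, Fosl2 and Jun had a lower fitted level in cold-sensitive neurons under 18 of 18 alternatives, and Fosb was called in 12 of the 12 that kept all libraries. The replicate block added Fosl2 (log2 fold change -1.27), so that 2 AP-1 genes were called in place of 1, and changed no other call among the 6. Leaving out 1 library gave 0 to 1 called AP-1 genes, with Fosb from -1.29 to -0.83. Junb ran from -0.054, without cold-sensitive replicate 1, to 0.50, and Jund from -0.11 to 0.02, reaching 0.016 when cold-insensitive replicate 2 was left out and 0.020 when cold-sensitive replicate 3 was. Per kilobase of exon the mean share of Fos, Fosb and Fosl2 among the 6 genes was 30.2% in cold-sensitive and 36.8% in cold-insensitive pools, and the groups overlapped. In reads the mean share was 41.7% and 50.4%, because Fosb and Fosl2 have the longest exon unions, and the groups did not overlap.

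Over all genes edgeR called 112, 80 lower and 32 higher. DESeq2 called 231 (150 lower, 81 higher), edgeR's newer quasi-likelihood form 177 (123 and 54) and its likelihood ratio test 179 (124 and 55), and with 1 library left out 29 to 92 were called, 20 to 63 lower and 8 to 29 higher. Totals were lowest when replicate 2 was left out, at 29 for the cold-insensitive and 35 for the cold-sensitive pool, followed by 56, 64 and 68 without cold-insensitive replicate 3, cold-insensitive replicate 1 and cold-sensitive replicate 3. The cause of these differences was not tested. Depth limits Junb most, with 103 to 225 counts per library.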
